A study of Homo sapiens with 4 samples.

Results

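The 14-3-3 proteins are a family of small acidic adaptor proteins that work as dimers and dock onto other proteins once these carry a phosphorylated serine or threonine in a suitable motif. Docking can hold a client in the cytoplasm, mask one of its surfaces or keep it in one conformation, so the family sits downstream of many kinases, including those that control the cell cycle, apoptosis and growth signalling. The sigma member, encoded by SFN, is largely an epithelial protein, and, in HCT116 cells, is known for holding mitotic cyclin-dependent kinase in the cytoplasm after DNA damage. The data below cover the 7 human family genes, SFN, YWHAB, YWHAE, YWHAG, YWHAH, YWHAQ and YWHAZ, chosen by symbol from the 47251 genes listed in each library. SFN and YWHAG had drawn attention to the family by very large differences between libraries, so their differences are a description of the values that led to the choice, and the other 5 genes stand beside them as contrast.

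RNA was sequenced from HCT116, a human colon cancer cell line in wide laboratory use, 48 hours after transfection. There were 4 groups of 1 library each. In the plasmid experiment cells received 2 µg of a plasmid encoding TTC22V1, a form of the tetratricopeptide repeat protein TTC22, or 2 µg of the control vector, which carries no TTC22. In the siRNA experiment they received 3 siRNAs against TTC22 at 100 nM in total or a scramble siRNA at the same concentration. All libraries therefore come from transfected cells, and none from untouched cells.

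Values are FPKM, which scale sequenced fragments by the length of the gene and the size of the library, so levels of different genes can be set side by side per length. With 1 library per group there is no replicate error and no test, and the differences are descriptions of single libraries. Genes averaging 1 FPKM or more over a pair count as measured in that comparison. They are past the size rule if log2(FPKM + 1) differs by 1 or more between the libraries, which is 2-fold. The pseudocount of 1 understates the change of low genes. The tables of the plasmid and siRNA experiments may have been normalized separately, so orders across all 4 libraries are descriptive.

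Facts on the libraries that touch these values are few. The summed FPKM lay between 181102 and 205734, and the number of reads behind it is unknown. TTC22 stood at 24215 FPKM with overexpression and 4.46 FPKM in vector, and at 6.54 FPKM with knockdown and 10.7 FPKM in scramble. In the siRNA pair TTC22 itself was thus lower with knockdown but within the size rule. In the overexpression library 12.8% of the FPKM sum was TTC22 alone. Over all measured genes the log2 fold had a median of −0.21 in the plasmid comparison and −0.02 in the siRNA comparison. Of 13 markers fixed for colon epithelium, 6 were measured in each comparison, KRT8, KRT18, KRT19, EPCAM, CDH1 and CDX2. Of these, CDX2 was past the size rule with overexpression, at 1.63 FPKM against 4.29 FPKM in vector (log2 fold −1.01), a direction past the rule in 4.1% of all measured genes, and stood at 1.28 FPKM with knockdown against 2.80 FPKM in scramble (−0.73), while the other 5 were within the rule in both comparisons. The markers VIL1, CDX1, CDH17, LGALS4, GPA33 and CEACAM5 were under 0.1 FPKM in the 4 libraries. Of 4 blood cell markers, CD3E was listed at 0 in all 4 libraries, and PTPRC was at 0.00276 FPKM or less. HBB was at 0.018 FPKM in both plasmid libraries and listed at 0 in both siRNA libraries. CD68 was at 5.76 FPKM with overexpression against 6.34 FPKM in vector, and at 37.2 FPKM with knockdown against 42.6 FPKM in scramble. It was the only blood marker measured and was within the size rule in both comparisons.

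SFN (ENSG00000175793) lies on chromosome 1 at 26863149 to 26864456 on the plus strand of hg38 and has 1 exon and 1 annotated transcript. It stood at 8.16 FPKM with TTC22V1 overexpression against 274 FPKM in vector, and at 262 FPKM with knockdown against 8.66 FPKM in scramble. The vector and knockdown libraries were thus both high and close to each other, and the overexpression and scramble libraries both low and close to each other. The log2 fold was −4.91 in the plasmid comparison, a 33.5-fold lower FPKM, and 4.77 in the siRNA comparison, a 30.3-fold higher FPKM. The control libraries also differed: SFN was 31.6 times as high in vector as in scramble. In its high libraries SFN was among the most abundant transcripts per length, at place 88 in vector and place 98 in knockdown, against places 3408 with overexpression and 3095 in scramble. In these bulk samples fewer cells with the transcript and less of it per cell cannot be told apart. KRT18, a keratin of simple epithelium, was at 229 FPKM with overexpression and 289 FPKM in vector, and at 271 FPKM with knockdown and 292 FPKM in scramble.

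YWHAG (ENSG00000170027), which encodes 14-3-3 gamma, lies on chromosome 7 at 76326799 to 76358991 on the minus strand and has 2 exons and 1 annotated transcript. The gamma protein is abundant in brain and binds, among others, MDM4 after DNA damage. YWHAG stood at 0.181 FPKM with overexpression against 0.0527 FPKM in vector, and at 84.1 FPKM with knockdown against 0.284 FPKM in scramble. It was high in the knockdown library and under 1 FPKM in the other 3. Its mean over the plasmid pair was 0.117 FPKM, so it was not measured there. In the siRNA pair its log2 fold was 6.05, a ratio of 296 between the FPKM values, and 7 of the 9744 measured genes had a larger log2 fold in size. With 84.1 FPKM it took place 302 among all genes of the knockdown library, against place 12374 in scramble.

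**Figure D1:**
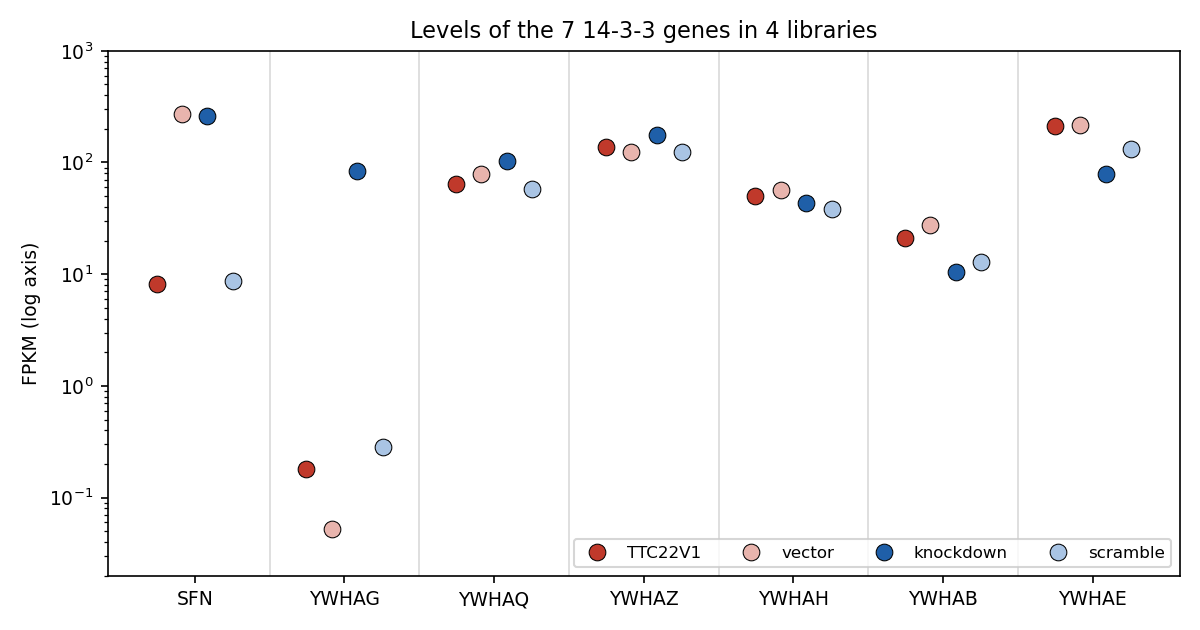
FPKM of the 7 genes on a log axis, 1 point per library, with the overexpression and vector libraries left of the knockdown and scramble libraries within each gene. SFN is at 274 and 262 FPKM in vector and knockdown and below 10 FPKM in the others, YWHAG is high in knockdown, and the remaining genes span at most 2.72-fold between their highest and lowest library.

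The promoter windows of SFN and YWHAG are shown because these are the members whose levels set the libraries apart, and because both were higher with knockdown than in scramble. Each window runs from 250 bases before the gene's start to 50 bases after it, on the strand of the gene, as RefSeq gives it on GRCh38.p14. Capitals mark matches, on either strand, to the GC box GGGCGG, bound by SP1-type factors, and to the pattern TGANTCA. This pattern is looser than the AP-1 motif, as its centre may be any base. No capital stretches of these motifs overlap. The SFN window is chr1:26862899-26863198 on the plus strand and the YWHAG window chr7:76358942-76359241 on the minus strand.
SFN: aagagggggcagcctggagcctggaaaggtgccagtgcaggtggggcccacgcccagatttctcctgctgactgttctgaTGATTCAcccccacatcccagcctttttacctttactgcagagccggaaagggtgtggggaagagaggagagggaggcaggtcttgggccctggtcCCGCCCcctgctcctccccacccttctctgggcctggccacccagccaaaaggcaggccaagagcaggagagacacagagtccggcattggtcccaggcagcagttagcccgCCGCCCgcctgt
YWHAG: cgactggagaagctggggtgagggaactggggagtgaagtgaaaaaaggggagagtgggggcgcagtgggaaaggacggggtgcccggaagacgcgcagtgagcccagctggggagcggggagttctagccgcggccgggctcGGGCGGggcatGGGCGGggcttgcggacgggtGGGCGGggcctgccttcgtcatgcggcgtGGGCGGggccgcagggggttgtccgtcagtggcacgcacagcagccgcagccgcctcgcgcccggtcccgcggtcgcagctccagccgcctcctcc
The SFN window held 2 GC boxes and 1 match to TGANTCA, which has T at its centre and meets only this looser pattern. The YWHAG window held 4 GC boxes and no match to TGANTCA. Of 35116 windows of the same length, 45.0% held a GC box and 7.71% a match to TGANTCA. The windows differ most in CG dinucleotides, of which SFN had 7 and YWHAG 32, where the median over all windows was 14. The windows of YWHAB, YWHAE, YWHAH and YWHAQ held between 29 and 44, so SFN had the lowest count of the 6 members with a window here. The other motifs searched, on both strands, were the CCAAT box, the cyclic AMP response element TGACGTCA, the TEAD motif GGAATG, the TATA box with the letters TATAAA, and the E-box with the letters CACGTG. The CCAAT box, in 34.6% of all windows, was found 1 time in the window of SFN, 1 time in that of YWHAB and 3 times in that of YWHAQ. The window of YWHAH held 1 cyclic AMP response element, present in 1.85% of all windows, and 1 TATA box, present in 11.5%. The TEAD motif and the E-box were found in none of the 6 windows, where 4928 of the 35116 windows held the first and 7.26% the second. A match or its absence in these letters is a description and says nothing about binding.

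Of the remaining members, YWHAQ and YWHAE differed most with knockdown, in opposite directions. YWHAQ (chromosome 2, 9583967 to 9630997, minus strand, up to 6 exons) encodes 14-3-3 theta, also called tau, which binds the apoptosis regulator BAD among others. It stood at 63.6 FPKM with overexpression against 79.5 FPKM in vector, and at 103 FPKM with knockdown against 57.9 FPKM in scramble. The knockdown library was the highest of the 4 and scramble the lowest, and the log2 fold of 0.82 stayed within the size rule. Among all measured genes 3.51% had a higher fold.

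YWHAE (chromosome 17, 1344275 to 1400222, minus strand, up to 7 exons) encodes 14-3-3 epsilon, a member that mostly forms mixed dimers and binds CDC25 phosphatases. It stood at 212 FPKM with overexpression against 214 FPKM in vector, and at 78.9 FPKM with knockdown against 132 FPKM in scramble. Both plasmid libraries were above both siRNA libraries, and knockdown was the lowest. The log2 fold with knockdown was −0.73, within the rule, and 3.89% of measured genes had a lower fold. The ratio of YWHAQ to YWHAE, which does not depend on library size, was 0.300 with overexpression against 0.371 in vector, and 1.30 with knockdown against 0.439 in scramble. The knockdown library was therefore the only one of the 4 in which YWHAQ lay above YWHAE.

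YWHAZ, YWHAH and YWHAB had smaller folds with knockdown than YWHAQ and YWHAE. YWHAZ (chromosome 8, 100916523 to 100953388, minus strand, up to 7 exons) encodes 14-3-3 zeta, a broadly expressed survival adaptor. It stood at 137 FPKM with overexpression against 125 FPKM in vector, and at 175 FPKM with knockdown against 125 FPKM in scramble, with log2 folds of 0.13 and 0.49. The controls agreed closely for this gene, at a ratio of 0.999 of vector over scramble. YWHAH (chromosome 22, 31944522 to 31957603, plus strand, up to 3 exons) encodes 14-3-3 eta and stood at 49.6 FPKM with overexpression against 56.8 FPKM in vector, and at 43.7 FPKM with knockdown against 38.3 FPKM in scramble. Its 4 values lay within a 1.48-fold span. YWHAB (chromosome 20, 44885702 to 44908532, plus strand, up to 7 exons) encodes 14-3-3 beta, a broadly expressed member. It stood at 21.2 FPKM with overexpression against 27.7 FPKM in vector, and at 10.4 FPKM with knockdown against 12.8 FPKM in scramble. With overexpression its log2 fold of −0.37, within the size rule, was the largest in size of the 5 members other than SFN and YWHAG. Its 4 values spanned 2.66-fold. Like YWHAE and YWHAH, it was higher in both plasmid libraries than in both siRNA libraries, an order that 42.5% of 10133 genes averaging 1 FPKM or more over the 4 libraries also showed.

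In counts, 1 of the 6 measured members was past the size rule with overexpression, SFN, which was lower. The share of all 10191 measured genes past it was 6.18% in either direction and 4.1% for lower genes. With knockdown 2 of 7 measured members were past the rule, SFN and YWHAG, both higher, where 4.75% of 9744 measured genes were past it in either direction and 2.57% were higher. At a rule of 1.5-fold, YWHAE and YWHAQ joined them with knockdown, which made 4 of 7, where 11.3% of measured genes were past it. The differences of SFN and YWHAG led to the choice of the family, so nothing is read from the counts. Of the 4 members with 4 or more exons, none was past the rule in either comparison. The median log2 fold of the measured members was −0.25 in the plasmid comparison beside −0.21 for all measured genes, and 0.49 in the siRNA comparison beside −0.02. SFN entered both of these medians and YWHAG that of the siRNA comparison, so nothing is read from the medians either.

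**Figure D2:**
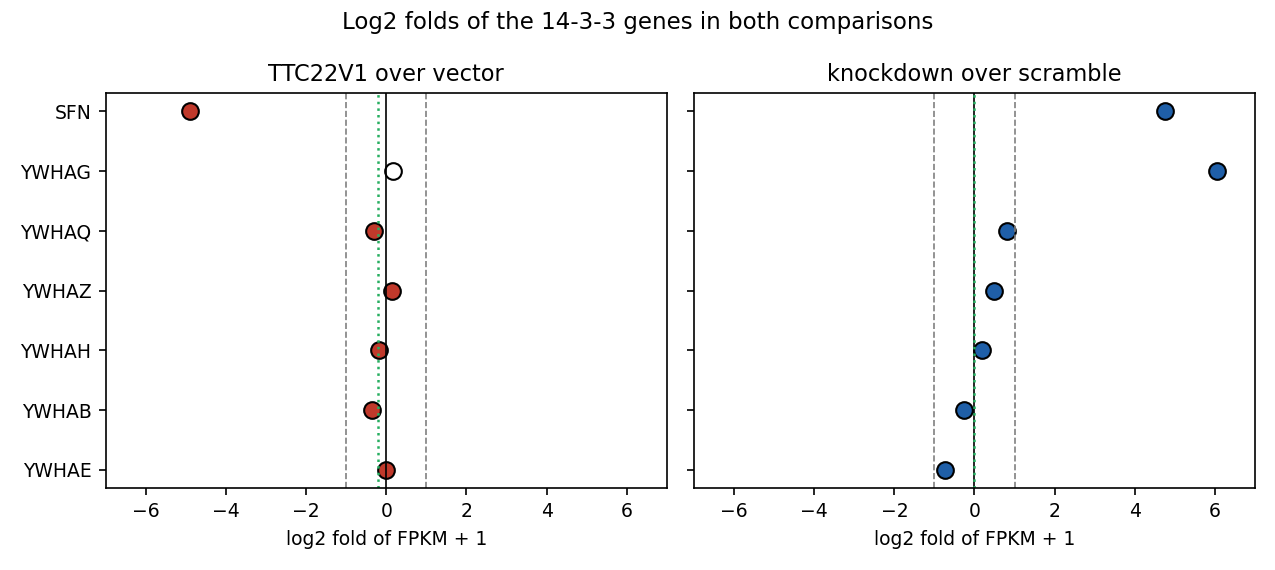
Log2 fold on the log2(FPKM + 1) scale of each member, for TTC22V1 over vector on the left and knockdown over scramble on the right. Dashed lines mark the size rule, the dotted green line the median of all measured genes, and the open point a gene not measured in that pair. SFN lies at −4.91 and 4.77, YWHAG at 6.05 with knockdown, and the other members lie inside the dashed lines.

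Summed over the 7 genes, the family stood at 491 FPKM with overexpression against 776 FPKM in vector, and at 757 FPKM with knockdown against 374 FPKM in scramble. The difference in the plasmid pair was −285 FPKM, of which SFN gave −265 FPKM. In the siRNA pair it was 383 FPKM, of which SFN gave 253 FPKM and YWHAG 83.8 FPKM. Without SFN and YWHAG the other 5 genes summed to 483 FPKM with overexpression against 503 FPKM in vector, and to 411 FPKM with knockdown against 365 FPKM in scramble, log2 folds of −0.06 and 0.17. The first of these lies above the median of −0.21 over all genes. SFN and YWHAG together held 1.70% of the family sum with overexpression against 35.2% in vector, and 45.7% with knockdown against 2.39% in scramble. The leading member per length was YWHAE in the overexpression and scramble libraries and SFN in the vector and knockdown libraries, and YWHAG was the lowest member in all libraries but knockdown. In knockdown YWHAB was the lowest.

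**Figure D3:**
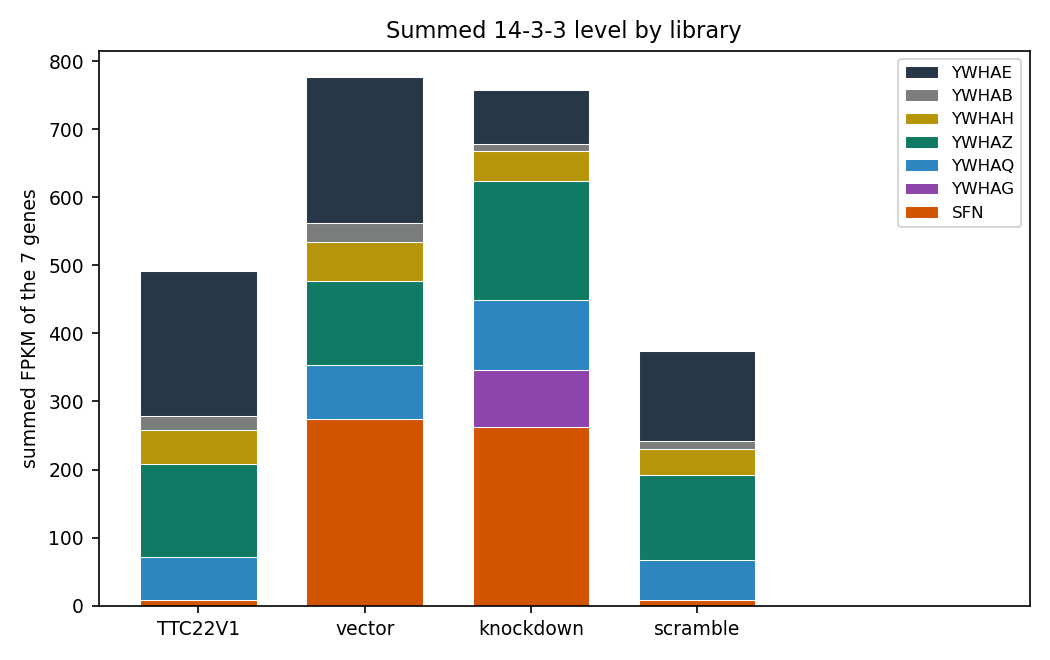
Stacked FPKM of the 7 genes in each library, with TTC22V1 left of vector and knockdown left of scramble. The totals are 491, 776, 757 and 374 FPKM, and the SFN segment is thick in vector and knockdown, where SFN and YWHAG hold 35.2% and 45.7% of the sum.

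The share of measured genes past the size rule fell with exon number. Among measured genes with 1 exon, as SFN has, 41.5% were past the size rule in the plasmid comparison and 36.7% in the siRNA comparison. Among those with 2 exons, as YWHAG has, the shares were 27.9% and 17.5%. Among those with 3 exons, as YWHAH has, the shares were 17.6% and 15.3%. YWHAH itself was within the rule in both comparisons, with log2 folds of −0.19 and 0.19. Among genes with 4 or more exons, as YWHAB, YWHAE, YWHAQ and YWHAZ have, the shares were 4.43% and 3.33%. The difference between classes was wider still for changes of 16-fold or more, which 8.59% of 1-exon genes and 2.14% of 2-exon genes showed with knockdown, against 0.0564% of genes with 4 or more exons. Of the 46 genes with 2 exons that reached 20 FPKM in knockdown or scramble, 3 were under 1 FPKM in the other library, YWHAG among them. For 4 or more exons this was 3 of 1340. SFN and YWHAG are also the only members with a single annotated transcript, and their values carry 6 decimals in all 4 libraries, where the other members carry 11 to 13. Values with at most 6 decimals made up 89.4 to 90.4% of those above 0 for genes with 1 transcript and 7.69 to 8.19% for genes with several. Whether the way the values were computed contributes to the low values of YWHAG and SFN was not tested.

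**Figure D4:**
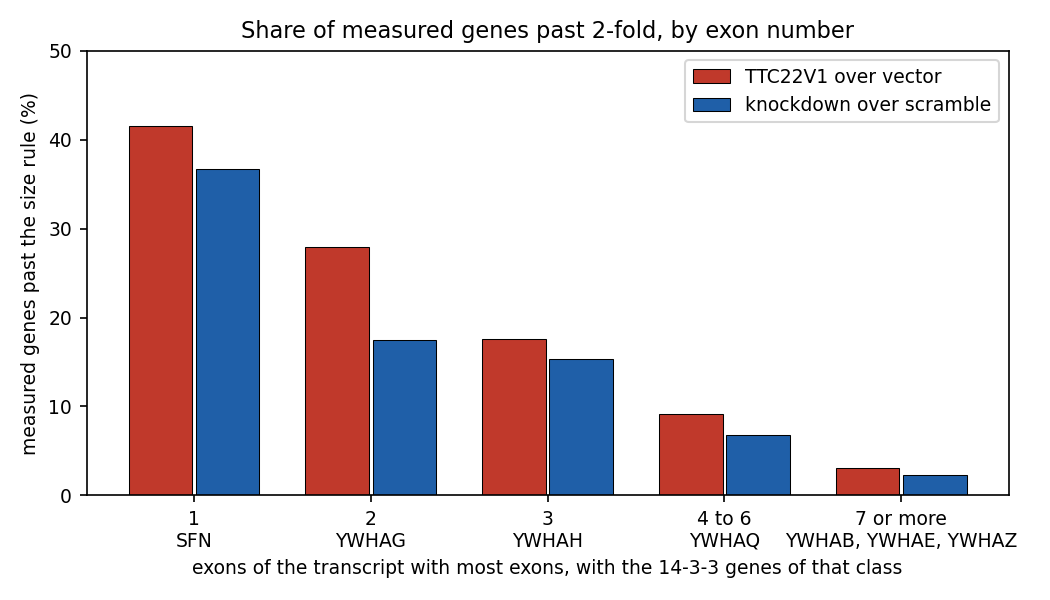
Share of measured genes past the 2-fold size rule by number of exons, for TTC22V1 over vector and knockdown over scramble, with the 14-3-3 genes of each class named under it. The shares fall with exon number from 41.5% and 36.7% in the class of SFN to under 5% in that of YWHAB, YWHAE and YWHAZ.

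Members with many exons are also those with pseudogenes. GENCODE 44 lists 26 pseudogenes of the family, of which YWHAZ has 9, YWHAQ 8, YWHAE 7 and YWHAB 2, and SFN, YWHAG and YWHAH have none. Only 1 of the 26, YWHAEP7, was matched in the tables, and it reached at most 0.00443 FPKM. Reads of processed copies and of their parent genes can be exchanged, so the levels of YWHAZ, YWHAQ and YWHAE are uncertain to that degree.

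Among the 8 genes whose pattern over the 4 libraries was most like that of SFN were the basal and squamous keratin genes KRT14, KRT5 and KRT6A. Likeness was taken as the Euclidean distance between profiles of log2(FPKM + 1) minus the gene's own mean, over 5203 other genes averaging 5 FPKM or more without a 0 in any library. Nearest was KRT14, a keratin of basal cells of stratified epithelium, at a distance of 0.559. It stood at 0.0663 FPKM with overexpression against 41.7 FPKM in vector, and at 22.7 FPKM with knockdown against 0.111 FPKM in scramble. PPP1R15B, a targeting subunit of the phosphatase that acts on eIF2 alpha, followed at 0.819, then KRT5 at 0.824 and KRT6A at 1.22. HOXB7, TNFSF9, S100A2 and STBD1 completed the 8, the last at 3.11. KRT14, KRT5 and KRT6A have 8 or 9 exons in the transcript with most exons, unlike SFN. At least 4-fold higher on the FPKM + 1 scale in both vector and knockdown than in both overexpression and scramble were 11 of 10133 genes, or 0.109%, of which 4 were basal or squamous markers, 7 had under 4 exons and SFN was 1.

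The basal and squamous markers moved with SFN over most of those measured. Of 15 markers, 10 were measured in each comparison, of which 7 were lower and 0 higher with overexpression, and 6 were higher and 0 lower with knockdown. Over all measured genes 4.1% were lower with overexpression and 2.57% higher with knockdown. Of the markers past the rule, 6 of 7 and 4 of 6 were under 1 FPKM in the lower library of the pair, so that they were measured through the library where they were high. Their summed level was 32.1 FPKM with overexpression against 148 FPKM in vector, and 271 FPKM with knockdown against 157 FPKM in scramble. Most of the sum in scramble came from the laminin gene LAMB3, at 116 FPKM. The other 14 markers summed to 15.9 FPKM with overexpression against 118 FPKM in vector, and to 121 FPKM with knockdown against 41.7 FPKM in scramble. TP63, the master regulator of basal epithelium, was at 0.00785 FPKM with overexpression against 2.08 FPKM in vector, and at 0.124 FPKM with knockdown and listed at 0 in scramble. IVL was listed at 0 in all libraries but vector. Of the 5 mesenchymal markers, only 2 were measured in the plasmid comparison and 1 in the siRNA comparison. None of these was past the size rule, where 6.18% and 4.75% of all measured genes were. What part the markers play in the SFN difference was not tested.

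The 5203 genes leave out any listed at 0 in a library, so a gene at 0 outside knockdown could not be found. None of them was as close to YWHAG as KRT14 was to SFN. The distance also grows with the size of the differences. The centred value largest in size was 4.64 for YWHAG, in knockdown, and −2.46 for SFN, with overexpression. A gene with the shape of YWHAG but smaller differences therefore counts as far. The genes nearest to YWHAG were NFIL3 at a distance of 3.23 and the neurotensin receptor gene NTSR1 at 3.30. NFIL3 is a leucine zipper transcription factor with 2 exons and 1 transcript. NFIL3 stood at 28.5 FPKM with overexpression against 0.952 FPKM in vector, and at 131 FPKM with knockdown against 2.35 FPKM in scramble. WASF2, an activator of actin branching, was at 74.9 FPKM with knockdown against 20.5 FPKM in scramble and between 10.8 and 11.2 FPKM in the plasmid libraries. SNORD14E, TMSB10, NDRG1, NAA50 and SCAMP1 completed the 8, the last at a distance of 3.74. At least 4-fold higher on the FPKM + 1 scale in knockdown than in each of the other 3 libraries were 19 of 10133 genes, or 0.188%, of which 14 had under 4 exons and YWHAG was 1. Between members, the closest profiles were those of YWHAQ and YWHAZ, at 0.399, and of YWHAE and YWHAB, at 0.414, while SFN and YWHAG were 4.90 apart.

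**Figure D5:**
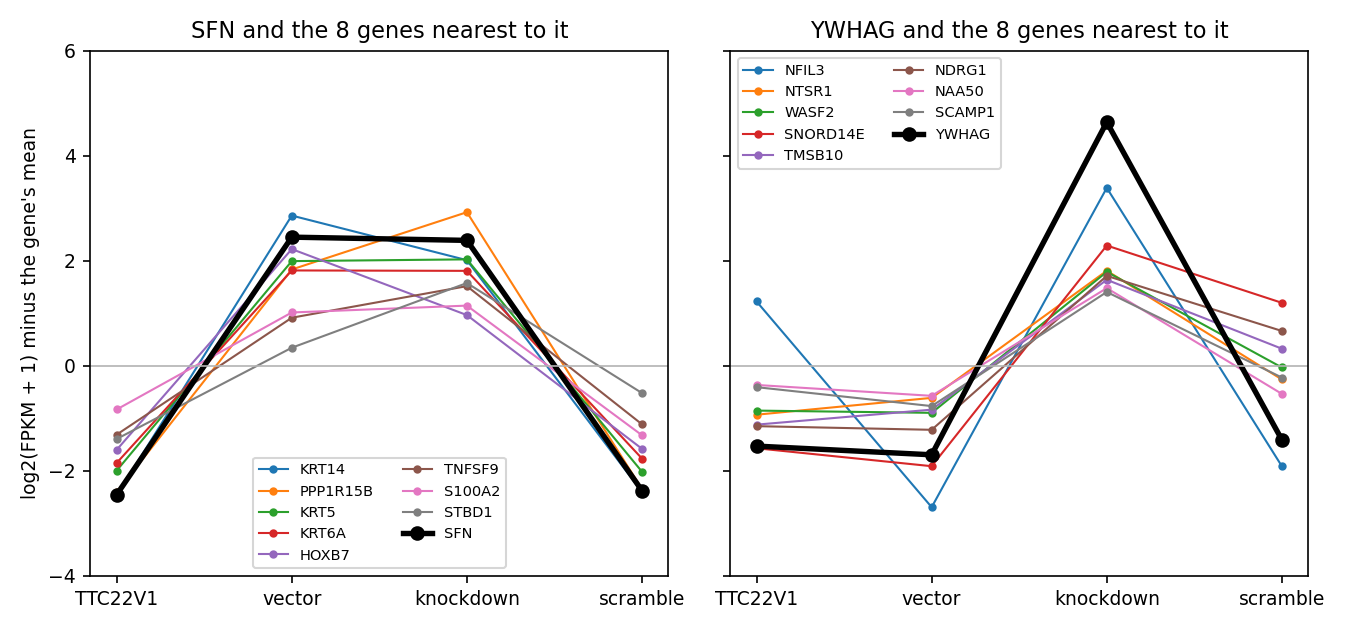
Profiles of log2(FPKM + 1) minus each gene's mean over the 4 libraries, for SFN on the left and YWHAG on the right (thick black lines) with the 8 nearest genes of each. KRT14, at a distance of 0.559, runs almost on the SFN line, while the nearest genes of YWHAG lie 3.23 or more away.

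The genes beside the members in the genome were counted too. Of the 14 nearest protein-coding genes on either side of the members, 10 were measured in each comparison, none was past the size rule with overexpression and 1 was with knockdown, where 6.18% and 4.75% of all measured genes were. That gene was HSPB1, a small heat shock protein gene 22503 bases from YWHAG, which was lower, at 85.8 FPKM with knockdown against 352 FPKM in scramble. YWHAG was higher in the same pair. The neighbours of SFN, ZDHHC18 and GPN2, stood at 4.70 and 6.30 FPKM with overexpression against 8.41 and 7.25 FPKM in vector, and at 3.97 and 3.23 FPKM with knockdown against 3.34 and 2.29 FPKM in scramble.

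The genes coding for proteins that the family binds were set beside all measured genes. Of all measured genes 6.18% were past the size rule with overexpression and 4.75% with knockdown. The counts of clients are small, so nothing is read from them. Of 43 clients with a phosphorylated docking site, 40 were measured with overexpression, of which 1 was higher and 0 lower, and 39 with knockdown, of which 0 were higher and 2 lower. The list medians were −0.24 and −0.09, beside −0.21 and −0.02 for all measured genes. YAP1, the Hippo pathway coactivator that 14-3-3 proteins retain in the cytoplasm, was at 5.47 FPKM with knockdown against 15.5 FPKM in scramble, and MDM4 was at 1.63 FPKM with knockdown against 5.46 FPKM in scramble. The insulin receptor substrate gene IRS1, with 2 exons, was at 4.43 FPKM with overexpression against 1.06 FPKM in vector. Within the rule were FOXO1, a transcription factor excluded from the nucleus by docking, at 1.30 FPKM with knockdown against 3.56 FPKM in scramble, and FOXO3 at 4.52 FPKM with overexpression against 9.67 FPKM in vector. AKT1S1, which codes for a subunit that restrains mTORC1, was at 11.5 FPKM with overexpression against 19.0 FPKM in vector.

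Of 40 kinases and phosphatases that write or erase docking sites, 35 were measured in each comparison. With overexpression 0 were higher and 2 lower, the survival kinase gene PIM2 (2.68 FPKM against 6.82 FPKM in vector) and the phosphatase catalytic subunit gene PPP1CB (10.6 FPKM against 23.0 FPKM in vector). Neither passed after centring on the median of all genes. With knockdown 1 was higher, PIM1, at 22.2 FPKM against 8.47 FPKM in scramble, and 0 were lower. PPP1CB stood at 39.9 FPKM with knockdown against 22.7 FPKM in scramble, within the rule. The list medians were −0.24 and 0.02.

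The list of regulators of 14-3-3 sigma held 14 symbols, of which COP1 and RFWD2 name the same gene, matched as RFWD2. All 13 genes were thus matched. With overexpression 12 were measured, of which 2 were lower and 0 higher, where 4.1% of all measured genes were lower. They were TP63, given above, and TRIM25, the ubiquitin ligase that targets 14-3-3 sigma for degradation, at 6.41 FPKM with overexpression against 19.0 FPKM in vector. TP63 was under 1 FPKM with overexpression, so it was measured only through vector, where it was high. Nothing is therefore read from the count of lower regulators. TRIM25 was at 16.6 FPKM with knockdown against 17.8 FPKM in scramble. With knockdown none of 10 measured genes was past the rule, where 4.75% of all measured genes were. DNMT1, the maintenance DNA methyltransferase, was at 12.5 FPKM with overexpression against 22.8 FPKM in vector, and at 3.62 FPKM with knockdown against 6.64 FPKM in scramble. DNMT1 was higher in each plasmid library than in each siRNA library, an order that 42.5% of 10133 genes averaging 1 FPKM or more also showed. Whether DNMT1 bears on the level of SFN was not tested. KLF4 was at 31.0 FPKM with knockdown against 19.7 FPKM in scramble.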

How the data were processed

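Paired-end libraries were made from poly(A) RNA, per the labels' protocols, 1 for each of 4 groups of HCT116 cells. Reads were aligned with STAR to hg38, per the submitters' processing notes. The sources used here give no quantification program, annotation, strand setting or filter. The deposited values, in 2 tables, are taken to be FPKM as made by the authors: the headers name no unit, the values are not whole and most genes with 1 transcript carry 6 decimals. Depth is unknown, so no counting interval is given.

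From these values log2 folds with a pseudocount of 1 were computed in Python 3.11.15 (numpy 2.4.6, pandas 2.3.3) within each table. Exon numbers (of the transcript with most exons), transcript numbers and coordinates come from GENCODE 44 on hg38, which held 91.6% of the gene identifiers. Promoter windows come from RefSeq on GRCh38.p14.

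The members and gene lists were chosen with earlier results of these data known. Named were the 7 members, TTC22, pseudogenes at 1 FPKM or more (none), in each list up to 4 genes by size of fold, and the 8 genes nearest in profile to SFN and to YWHAG. YWHAEP7, HSPB1, ZDHHC18, GPN2 and further markers were named after their values were seen, and the genome neighbours and the 4-fold patterns were added then. Alternatives were a pseudocount of 0.1, centring on the median, rescaling without TTC22, other filters and sizes, and other family sums. A few listed genes are not reported here. The size rule was also run on simulated pairs with known changes and an assumed noise. That noise was not estimated from replicates, so the simulation cannot show how reliable the SFN and YWHAG differences are.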

Additional observations from a re-analysis of the deposited data

How the results depend on the processing

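Of 104 values recomputed under the alternatives, 84 kept their side of the size rule, or for counts stayed within 1.5 times, and no value past the rule changed direction. SFN in both comparisons and YWHAG in the siRNA comparison stayed past the rule under all 3 alternatives for folds. Of the members within the rule, YWHAE and YWHAH changed sign in the plasmid comparison after centring (0.19 and 0.01) and after rescaling without TTC22 (0.21 and 0.03). The log2 fold of the family sum was −0.66 with overexpression, −0.43 after rescaling and −0.04 over the members with 4 or more exons. With knockdown it was 1.01, 0.83 after rescaling and 0.17 over the members with 4 or more exons. With a size rule of 1.5-fold, 4 members were past it with knockdown, SFN, YWHAG, YWHAE and YWHAQ. The small counts for the client, kinase and regulator lists, of 43, 40 and 13 matched genes, moved most, and nothing is read from them. At 1.5-fold with overexpression, 35.1% of measured genes with under 4 exons and 12.2% of those with 4 or more were past the rule. With knockdown it was 11.3% of all measured genes. Shares over all genes are not given for the other alternatives. With overexpression, clients past the rule numbered 2 with a pseudocount of 0.1, 0 with a mean of at least 5 FPKM, 6 at 1.5-fold and 0 at 4-fold. Kinases and phosphatases numbered 0 after centring, 0 after rescaling, 1 with a mean of at least 5 FPKM and 0 at 4-fold, and regulators 1 after rescaling, 1 with a mean of at least 5 FPKM and 0 at 4-fold. With knockdown, clients numbered 1 with a mean of at least 5 FPKM, 5 at 1.5-fold and 0 at 4-fold, kinases and phosphatases 2 at 1.5-fold and 0 at 4-fold, and regulators 2 at 1.5-fold. Another filter or size rule changes such counts by construction, while centring, rescaling and a smaller pseudocount alter the folds themselves. Why a given gene moved was not tested. No replicate could be left out, as each group has 1 library. No paired analysis was possible because each group has 1 library. Unknown depth limits what the values under 1 FPKM of YWHAG can show.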
